A study of Mus musculus with 2 samples.

Results

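The barcodes described here carried 200 to 5000 detected genes and drew more than 5% of their unique molecular identifiers (UMIs) from the 13 protein-coding genes of the mitochondrial genome, the mt- genes. They were chosen by these values alone, and numbered 304 of the 1349 barcodes within the gene range in the untreated (UT) library and 854 of 1425 in the imiquimod (IMQ) library. They are called high-mt barcodes below, and the 1045 UT and 571 IMQ barcodes of the same gene range with at most 5% mt- UMIs are called reference barcodes. The files held 1415 UT barcodes with 1524079 UMIs and 5047 IMQ barcodes with 2358303 UMIs. The libraries shared 1 barcode sequence, a high-mt barcode in UT that was in neither set in IMQ.

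Both libraries came from the back skin of 8-week-old C57BL/6 PdgfraDreER-tdTomato mice that had received tamoxifen. The UT mice had no further treatment, and the IMQ mice received imiquimod, an agonist of Toll-like receptors that induces psoriasiform inflammation, over 7 days. In these mice the Pdgfra promoter drives a tamoxifen-dependent Dre recombinase that switches on tdTomato, so the label follows cells that expressed Pdgfra when tamoxifen was given. Live dermal cells that were CD45- and tdTomato+ were sorted before loading. How many mice went into each library is not stated in the sources used here. With 1 library per condition there is no replicate check, and no difference between UT and IMQ was tested. Intervals given below are 95% intervals and cover counting error only.

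The mitochondrial genome encodes subunits of the respiratory chain and of ATP synthase, and its messenger RNAs stay inside the organelle, where they are polyadenylated and so enter poly(A)-based libraries. The other subunits of the respiratory complexes are encoded in the nucleus and made on cytosolic ribosomes. A high mt- share is widely used as a sign of a damaged cell, because cytosolic RNA can be lost through a leaky membrane while mitochondria are retained, but it also varies with the mitochondrial content of a cell. Dermal fibroblasts make collagens, proteoglycans and other parts of the skin matrix.

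High-mt barcodes were 22.5% of the in-range barcodes in UT (interval 20.3 to 24.9%) and 59.9% in IMQ (57.3 to 62.5%). Their median mt- share was 6.60% in the UT library against 9.38% in the IMQ library, with highest values of 53.5% and 34.6%. The UT set sat near the limit, while the IMQ set reached further. By steps, 256 UT barcodes had 5 to 10%, 46 had 10 to 20% and 2 had over 20%. In IMQ the same steps held 472, 343 and 39 barcodes. Just inside the limit, at 5 to 6%, there were 107 UT and 116 IMQ barcodes, and just outside it, at 4 to 5%, there were 170 and 123. The counts ran through the limit without a gap in either library. The gene minimum also passes through a crowded range in IMQ, where 74 barcodes over 5% mt- lay within the first 10 gene counts from the minimum up and 89 within the 10 below it, against 15 and 13 in UT.

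The high share went with more mt- UMIs, and in UT also with fewer other UMIs. The median number of mt- UMIs was 45 in UT high-mt barcodes against 19 in the reference, and 72.5 against 16 in IMQ. The median number of UMIs from all other genes was 574 against 716 in UT, and 652.5 against 645 in IMQ. Both medians follow in part from the rule, since mt- and other UMIs together make up the share. Across UT steps from at most 2.5% to over 20% the median non-mitochondrial UMIs ran 747, 708.5, 620.5, 475 and 435. The IMQ medians were 623, 667, 671, 639 and 554, so that only the last IMQ step lay below all the others. Over the high-mt barcodes, Spearman's rho of the mt- share with the non-mitochondrial UMIs was -0.24 in UT (304 barcodes) and -0.10 in IMQ (854 barcodes), where the points share a library and the second measure enters the first.

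**Figure D1:**
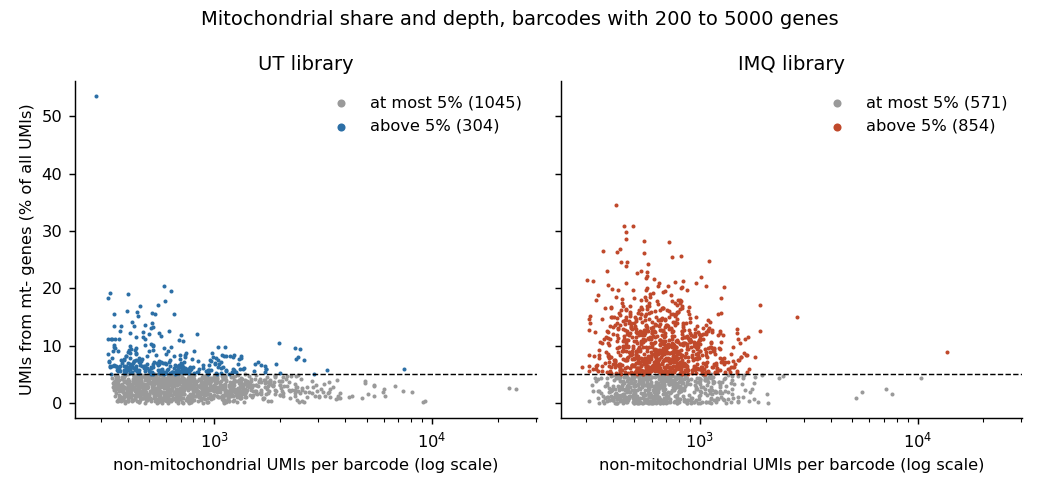
Share of UMIs from mt- genes (y axis, percent) against UMIs from all other genes (x axis, log scale), 1 point per barcode with 200 to 5000 genes, UT and IMQ in separate panels, with high-mt and reference barcodes in separate colours and the 5% limit as a line. The points cross the limit without a gap, and the 304 UT high-mt barcodes crowd just above it while the 854 IMQ ones spread upward.

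The mt- genes kept nearly the same proportions on both sides of the limit. Because these genes set the rule, their shares are given as a description. In UT, mt-Co1, a subunit of cytochrome c oxidase, supplied 16.8% of the mt- UMIs of high-mt barcodes and 18.0% of those of the reference. In IMQ it supplied 13.9% and 14.6%. mt-Nd1 of complex I stood at 5.52% and 6.13% in UT and at 5.19% and 5.67% in IMQ. mt-Atp6, a subunit of ATP synthase, took 17.6% and 17.2% in UT. mt-Cytb of complex III took 10.1% against 8.55% in UT, the widest gap of the 13 genes there. The libraries differed from each other by more than the sets did for several genes. mt-Nd3, a complex I subunit, took 1.40% and 1.34% in UT but 2.99% and 2.79% in IMQ, and mt-Co3 took 13.8% and 14.0% in UT but 18.6% and 18.9% in IMQ.

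**Figure D2:**
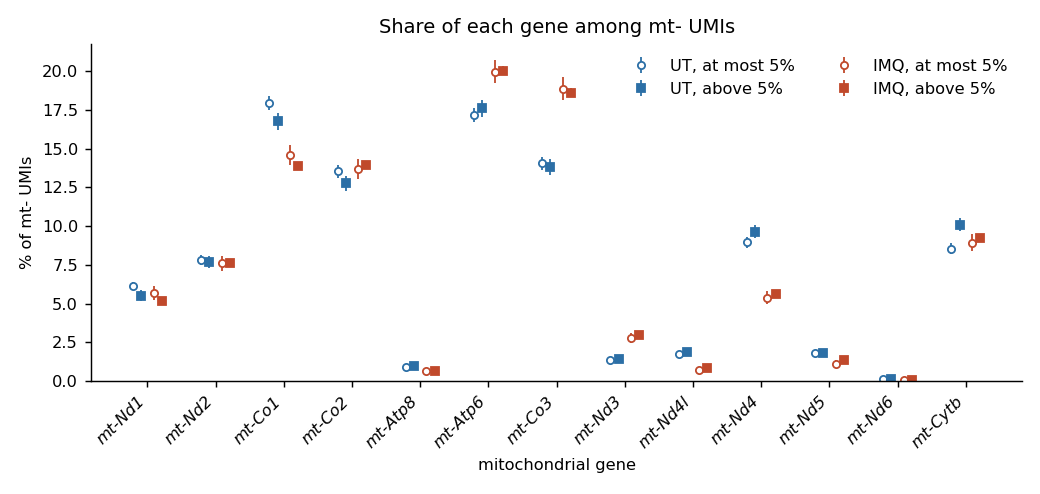
Share of each of the 13 mt- genes among all mt- UMIs (percent, y axis) in high-mt and reference barcodes of UT and IMQ. Within a library the sets lie close together, as for mt-Atp6 at 17.6% and 17.2% in UT, while UT and IMQ stand apart for mt-Co3 and mt-Nd3.

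To compare the remaining genes, each barcode was thinned at random to 350 non-mitochondrial UMIs, which kept 282 high-mt and 1032 reference barcodes in UT (98700 and 361200 UMIs) and 831 and 560 in IMQ (290850 and 196000 UMIs). The 22 UT and 23 IMQ high-mt barcodes below that depth, and 13 and 11 reference barcodes, were left out. Levels are UMIs per 1000000 non-mitochondrial UMIs (CPM), and ratios are the log2 of high-mt over reference with 1 CPM added to each. At this depth the median number of detected genes was 215.5 in UT high-mt barcodes against 230 in the reference, and 170 against 177 in IMQ.

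Fibroblast markers were detected in most barcodes of both sets, and what share free RNA alone would give was not measured. At least 3 UMIs of Col1a1, Col1a2, Col3a1, Dcn, Lum, Pdgfra and Pdpn together were found in 265 of 282 UT high-mt barcodes and 944 of 1032 reference barcodes, and in 97.1% and 97.0% in IMQ. Their median summed count was 25 against 23 UMIs in UT and 38 against 40 in IMQ. Every one of the 7 markers was detected among the high-mt barcodes of both libraries, though Pdgfra itself gave only 4 UMIs in UT and 23 in IMQ before thinning. At least 3 UMIs of 10 myeloid and class II markers, led by Cd74, which encodes the invariant chain of class II molecules, were found in 1 of 282 UT high-mt barcodes and 6 of 1032 reference barcodes, and in 5 of 831 and 5 of 560 in IMQ. T and NK cell markers reached 3 UMIs in 2 of 282 UT high-mt barcodes and in 0 of 1032 reference barcodes. Keratinocyte markers did so in 1 and 2 UT barcodes. Neutrophil, mast cell and erythrocyte markers were at 0 in all thinned sets. Some clusters of these barcodes, described last, were led by genes of other cell types.

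Most genes lay close to the same level in both sets. Of 1116 genes with at least 50 thinned UMIs in UT, 72.0% had a log2 ratio within 0.5 of 0, and of 792 in IMQ, 82.1% did. In UT, 16 genes were at least 2-fold higher in high-mt barcodes (1.43% of those measured) and 51 were at least 2-fold lower (4.57%). In IMQ, 7 were higher (0.884%) and 16 lower (2.02%). The reference supplied most of the UMIs that pass the 50-UMI minimum in UT. In IMQ the high-mt barcodes supplied more thinned UMIs, 290850 against 196000, which favours genes higher in them at this minimum. The median log2 ratio was -0.09 in UT and -0.03 in IMQ. Scaling by TMM, which assumes that most genes do not change, moved these medians to -0.21 and 0.14 and gave 10 higher and 67 lower genes in UT and 12 higher and 5 lower in IMQ, so that the balance of higher and lower genes in IMQ depended on the scaling. Another random draw gave 17 and 49 in UT, but 9 higher and 7 lower in IMQ, and the IMQ genes near the 2-fold line changed with the draw. The balance in UT also depended on the setting. With an unthinned reference weighted to the depths of the high-mt barcodes, 22 UT genes were higher and 12 lower. A minimum of 200 UMIs gave 4 and 4.

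Few genes were past 2-fold in the same direction in both libraries. Of the 709 genes measured in both, 3 were at least 2-fold higher in UT and in IMQ, namely Apod, Igfbp2 and Enpp2, and 0 were at least 2-fold lower in both. In IMQ, Igfbp2 (55 against 8 UMIs) and Enpp2 (53 against 15) passed the UMI minimum through the high-mt set. The 13 of these genes that were higher in UT all lay above 0 in IMQ, and the 6 that were higher in IMQ all lay above 0 in UT. Of the 20 that were lower in UT, 15 lay below 0 in IMQ, and of the 10 lower in IMQ, 6 lay below 0 in UT. Across the 709 genes the ratios of both libraries had a Pearson's r of 0.31 and a Spearman's rho of 0.32, and 61.4% shared a sign, where genes are not independent replicates.

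Apod (GRCm38 chromosome 16, 31296192 to 31314808, minus strand) encodes apolipoprotein D, a secreted lipid-binding lipocalin. It stood at 1834 CPM in UT high-mt barcodes against 734 in the reference, a log2 ratio of 1.32 (interval 1.04 to 1.60). In IMQ it stood at 894 against 332 CPM, a ratio of 1.43 (1.03 to 1.85). The high-mt level was above the reference in both libraries, and both UT levels were above the IMQ levels of the same set. A single barcode held 49 of 181 Apod UMIs among the UT high-mt barcodes and 56 of 260 in IMQ. Barcodes with at least 1 Apod UMI were 18.4% of UT high-mt and 14.5% of UT reference barcodes, and 12.8% and 9.5% in IMQ. The share from free RNA was not measured here either. Within barcodes of at least 500 genes the ratio was only 0.31 in UT and 0.04 in IMQ.

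Igfbp2 (chromosome 1, 72824503 to 72852474, plus strand) encodes a secreted binding protein of insulin-like growth factors. Its level was 1358 CPM in UT high-mt barcodes against 592 in the reference, a ratio of 1.19 (0.87 to 1.51). In IMQ it was 189 against 40.8 CPM, a ratio of 2.18 (1.13 to 3.49), from 55 UMIs in 23 high-mt barcodes and 8 UMIs in 4 reference barcodes. Few barcodes carried it in either library. With the limit at 10% the Igfbp2 ratio fell to 0.13 in UT and 0.65 in IMQ. Igfbp2 was a leading gene of UT cluster 3, at 6013 CPM before thinning against 189 in the other barcodes. Its unthinned ratios were 3.13, 0.91 and 0.38 in UT clusters 1 to 3. In IMQ clusters 1 to 4 they were 2.41, 0.16, 4.94 and 4.12, with 1 reference UMI in cluster 3 and 0 in cluster 4. Enpp2 (chromosome 15, 54838901 to 54952892, minus strand) encodes autotaxin, which makes lysophosphatidic acid. It stood at 314 against 133 CPM in UT (1.23, 0.54 to 1.92) and at 182 against 76.5 CPM in IMQ (1.24, 0.40 to 2.19). Without thinning, its ratio was 0.60 in UT and 0.18 in IMQ, so that over all barcodes the 2-fold difference of Enpp2 was not seen in the unthinned sums. Within clusters of barcodes, described last, unthinned Enpp2 sums gave ratios of 1.66, 1.67 and 0.62 in UT clusters 1 to 3 and from -0.37 to 1.32 in IMQ clusters 1 to 4. Its gene overlaps the predicted gene Gm26684, and the reads of the pair may not be separable, since the use of strand in counting is not stated.

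Several of the other genes named as highest in both libraries follow. Col6a2, a chain of collagen VI, was at 415 against 133 CPM in UT (1.64, 1.01 to 2.28) and at 368 against 184 CPM in IMQ (1.00, 0.45 to 1.59). Another draw gave Col6a2 ratios of 1.10 and 0.49. Col16a1 had ratios of 0.89 and 1.21, and Ecm1, a secreted matrix protein of skin, 1.21 and 0.86. In IMQ, Col16a1 passed the UMI minimum through the high-mt set, with 62 UMIs against 18. Igfbp5, another binding protein of insulin-like growth factors and among the most abundant of these genes, was at 4883 against 2688 CPM in UT (0.86, 0.70 to 1.02) and at 1386 against 923 CPM in IMQ (0.58, 0.33 to 0.85). The interval of Igfbp5 lay above 0 in both libraries. Thy1, a surface glycoprotein of fibroblasts, was at 871 against 421 CPM in UT (1.05, 0.65 to 1.44) and at 196 against 133 CPM in IMQ, where the interval of its ratio, -0.13 to 1.29, included 0. Fbln2, Cyp26b1, which degrades retinoic acid, Calu and Chpf had ratios from 0.62 to 1.14 in UT and from 0.54 to 0.66 in IMQ.

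Genes lower in both libraries were less abundant and of mixed function. Cldn10, a claudin, was at 203 against 371 CPM in UT (-0.87, -1.63 to -0.19) and at 234 against 444 CPM in IMQ (-0.92, -1.40 to -0.45). Psmd8, a proteasome subunit, had ratios of -0.82 and -0.95, and Rtn4, a shaping protein of the endoplasmic reticulum, -0.74 and -1.23. None of these 3 was 2-fold lower in both. Actb, the cytoplasmic beta-actin, was lower at much higher counts. It stood at 3931 against 5518 CPM in UT (-0.49, -0.65 to -0.33) and at 505 against 719 CPM in IMQ (-0.51, -0.85 to -0.17).

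**Figure D3:**
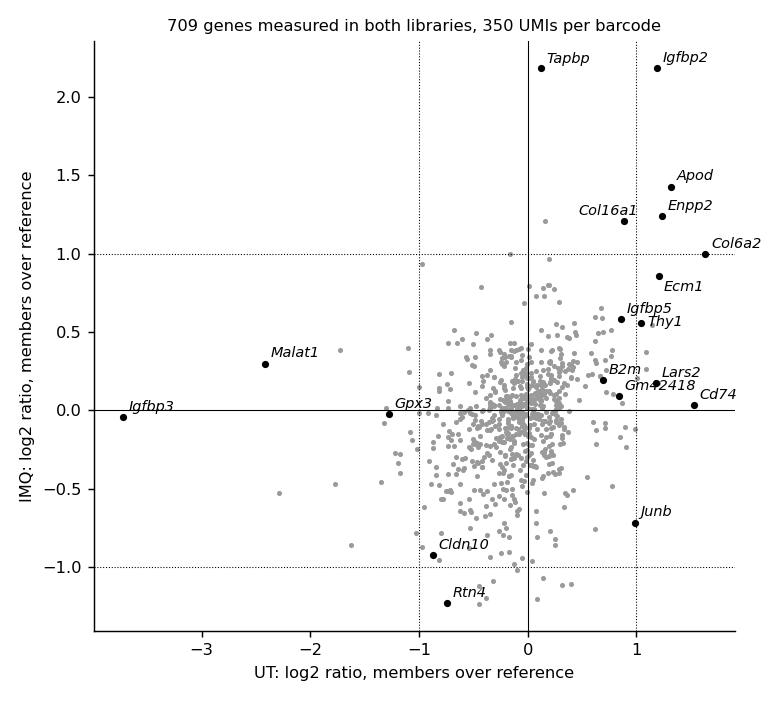
Log2 ratio of high-mt over reference barcodes in UT (x axis) and in IMQ (y axis) at 350 non-mitochondrial UMIs per barcode, 1 point for each of the 709 genes measured in both libraries, with lines at 2-fold. Most points crowd around 0, and Apod, Igfbp2 and Enpp2 are the 3 genes past 2-fold on the upper right.

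Transcripts of the ribosomal RNA loci were higher in UT high-mt barcodes. Gm42418 and AY036118 overlap on opposite strands of chromosome 17 (39846958 to 39848788 and 39847113 to 39848035) and carry ribosomal RNA sequence, and Lars2 (chromosome 9, 123366927 to 123462666), the mitochondrial leucyl-tRNA synthetase, is often counted with them because of a stretch of similar sequence in the gene. Gm42418 was at 24367 against 13618 CPM in UT (0.84, 0.77 to 0.91) and at 165714 against 155403 CPM in IMQ (0.09, 0.07 to 0.11). It thus differed far more between the libraries than between the sets of either. Lars2 was at 2553 against 1127 CPM in UT (1.18, 0.95 to 1.41) and at 10053 against 8913 CPM in IMQ (0.17, 0.09 to 0.26). AY036118 had ratios of 0.71 in UT and -0.11 in IMQ, and its reads and those of Gm42418 may not be separable. Together the 3 transcripts took 2.79% of the thinned UMIs of UT high-mt barcodes against 1.53% of the reference, and 18.2% against 17.1% in IMQ. These reads count in the total from which the mt- share is taken. Without them, 67.1% of the in-range IMQ barcodes lay above 5%.

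Several further genes stood apart in UT. B2m, the light chain of class I molecules, was at 2067 against 1279 CPM (0.69, 0.45 to 0.93), with a ratio of 0.19 in IMQ that included 0 within its interval of -0.04 to 0.43. It overlaps Patl2. Gpx3, a secreted glutathione peroxidase, was at 618 against 1498 CPM in UT (-1.28, -1.68 to -0.89) and at 1234 against 1255 CPM in IMQ (-0.02, -0.26 to 0.22). Gpx3 stayed at least 2-fold lower in UT under all 18 alternative settings, with ratios from -2.57 to -1.06. Among these, the minimums of 20 and 200 UMIs leave a ratio unchanged by design, and leaving out the shared barcode removes only 1. Within UT clusters, however, its unthinned ratio was -1.90 in cluster 1, -0.75 in cluster 2 and -0.11 (-2.74 to 2.11) in cluster 3. Igfbp3 was at 20.3 CPM in UT high-mt barcodes, from 2 UMIs, against 279.6 CPM in the reference (-3.72, -6.85 to -1.90), and its ratio was -0.04 in IMQ. Igfbp3 passed the UT minimum through the reference, and it was a leading gene of the keratin-led UT cluster 4, at 4563 CPM against 25.4 in the other barcodes. In UT clusters 1 and 2 it gave 3 UMIs against 15 and 0 against 10 before thinning. Unthinned Igfbp3 ratios in IMQ clusters 1 and 3 were -1.44 (-2.66 to -0.37) and -1.84 (-2.25 to -1.45). In IMQ clusters 2 and 4 they were 0.65 (-0.53 to 2.02) and -0.43 (-1.26 to 0.41). The IMQ ratio of -0.04 was thus not shared by all clusters. Anxa3, an annexin, was at 3 against 61 UMIs in UT (-2.44, -4.79 to -0.86) and also passed the UT minimum through the reference.

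Some large UT ratios rested on 1 or a few barcodes. Cd74 had 61 UMIs in high-mt barcodes and 77 in the reference, a ratio of 1.53, but 58 of the 61 lay in 1 barcode, and without the top barcode of each set the ratio was -1.37. The 10 myeloid and class II markers together stood at 1388 against 548 CPM in UT. Igkc, an immunoglobulin chain, had 1 UMI against 158, of which 94 lay in 1 reference barcode. Malat1 (chromosome 19, 5795690 to 5802672, minus strand), a long RNA retained in the nucleus, was at 729 against 3901 CPM in UT (-2.42, -2.78 to -2.08), where 15 of 282 high-mt and 77 of 1032 reference barcodes carried it. Without the deepest 5% of barcodes the UT ratio of Malat1 was -0.73, and with the limit at 10% it was -0.14. In IMQ it was at 791 against 643 CPM (0.30, -0.02 to 0.62), but 176 of its 230 high-mt UMIs lay in 1 barcode, and on the sums without thinning the ratio was -1.17. The overlapping gene Gm37376 shares its position.

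A few further genes stood out in IMQ. Tapbp, which loads peptide onto class I molecules, was at 189 against 40.8 CPM in IMQ (2.18, 1.13 to 3.49) and had a ratio of 0.12 in UT. Without thinning the IMQ ratio of Tapbp was 0.94. Zbtb20, a transcription factor, had ratios of 1.21 in IMQ and 0.16 in UT. Col4a1, a chain of basement membrane collagen, had 1.03 in IMQ (0.25 to 1.90) and 1.02 in UT (-0.02 to 2.03), where its 14 and 25 UMIs were under the minimum. Fuca1, a lysosomal enzyme, came just short of 2-fold, with ratios of 0.97 in IMQ and 0.20 in UT. In IMQ, Tapbp, Zbtb20, Col4a1 and Fuca1 passed the UMI minimum through the high-mt set, with 55, 69, 55 and 70 UMIs against 8, 20, 18 and 24. Whether the ratios of these genes differed between the libraries was not tested.

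Of 84 cytosolic ribosomal protein genes, 80 were measured in each library, with median ratios of 0.00 in UT and 0.07 in IMQ beside -0.09 and -0.03 over all measured genes. In UT, 0 of them were past 2-fold either way, and 40 of the 80 lay above 0. In IMQ, 58 of the 80 lay above 0 and Rps27l alone was 2-fold lower. Their share of the thinned UMIs was 23.6% in UT high-mt barcodes against 23.3%, and 21.3% against 20.2% in IMQ. The 15 genes of translation factors had medians of -0.13 in UT, over 14 measured, and -0.01 in IMQ, over 15. The share of all measured genes above 0 is not given here. Since the median over all measured genes lay below 0 in both libraries, counts of list genes above 0, here and below, have a background that leans lower.

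The nuclear genes for subunits of the respiratory chain and of ATP synthase, called nuclear OXPHOS genes below, were not higher as a group in high-mt barcodes. Of 81 such genes, 61 were measured in UT with a median ratio of -0.15, and 19 of them lay above 0. In IMQ, 48 were measured with a median of -0.05, and 18 lay above 0. Cox5b of cytochrome c oxidase was the 1 gene past 2-fold in UT and Ndufb7 of complex I the 1 gene in IMQ, both lower. Their summed share was 2.45% against 2.69% in UT and 1.55% against 1.64% in IMQ. Under TMM the IMQ median turned to 0.12 and the UT median was -0.26, so the direction in IMQ depended on the scaling. Of 22 genes of mitophagy and mitochondrial dynamics, 8 were measured in UT (median -0.26) and 7 in IMQ (-0.10). Fis1, an adaptor of mitochondrial fission, was past 2-fold lower in UT at -1.73, but its ratio was -0.41 without thinning.

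Interstitial matrix genes were higher in UT by their median. It was 0.24 over 15 measured genes in UT, where Col6a1 and Col6a2 were past 2-fold and 12 lay above 0, and 0.11 over 16 in IMQ, where 12 lay above 0 and 0 were past 2-fold. Under TMM both medians stayed above 0, at 0.12 and 0.29. Sparc, a collagen-binding matrix glycoprotein, had ratios of 0.29 and 0.22. Col1a1, the main chain of collagen I, had 0.23 in UT and -0.02 in IMQ. Together the list took 12.6% of the UMIs of UT high-mt barcodes against 10.8% of the reference, and 18.4% against 17.7% in IMQ.

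Cytoskeletal and antioxidant genes were lower in UT by their medians. Of 12 measured genes for actin and its partners with vimentin, 1 lay above 0 in UT (median -0.22), and 2 of 9 did so in IMQ (-0.04). Of 10 measured antioxidant genes, 1 lay above 0 in UT (-0.34), with Gpx3 past 2-fold, and 3 of 10 in IMQ (-0.06). Under TMM the IMQ medians of these lists turned to 0.13 and 0.11. Metallothionein and ferritin genes, which bind metals and iron, had medians of 0.18 in UT and -0.27 in IMQ over 4 genes. Glycolysis genes had -0.13 over 5 and 0.02 over 3, and genes of the secretory endoplasmic reticulum -0.15 over 16, with Serp1 past 2-fold lower, and -0.05 over 13.

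Genes of stress and cell death were sparse at this depth. Of 23 cell death and p53 genes, 3 were measured in UT, with a median of -0.39 and Bnip3l past 2-fold lower, and 0 in IMQ. With 4 UMIs against 50, Bnip3l passed the UT minimum through the reference, and it counts in that median. Summed over the list, the level was 770 against 900 CPM in UT (-0.22, -0.60 to 0.14) and 457 against 495 CPM in IMQ (-0.11, -0.50 to 0.28). Both intervals included 0. The summed integrated stress response genes were at 1084 against 944 CPM in UT (0.20, -0.13 to 0.52) and at 767 against 765 CPM in IMQ (0.00, -0.30 to 0.31). Heat-shock chaperones had a median of -0.29 over 7 genes in UT, with Hspa1a past 2-fold lower, and of -0.02 over 3 in IMQ. For immediate early genes, which dissociation of tissue can induce, the median was -0.11 over 5 genes in UT and -0.61 over 5 in IMQ, where 0 of 5 lay above 0. Their summed ratios at matched depth were 0.26 in UT (0.05 to 0.46) and -0.71 in IMQ (-0.93 to -0.49), so that in UT the sum and the median differed in sign. Before thinning the summed ratios were -0.51 and -1.15.

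Genes of the inflammatory response gave few UMIs. Summed chemokine and interleukin-17 response genes were at 344 against 490 CPM in UT (-0.51, -1.08 to 0.03) and at 371 against 577 CPM in IMQ (-0.63, -1.03 to -0.24), where the interval lay below 0. Ccl8, a chemokine for monocytes, was past 2-fold lower in IMQ at -1.01. It was a leading gene of the class II-led IMQ cluster 5, described last, at 20947 CPM before thinning against 32.0 in the other barcodes. That cluster held 10 barcodes, 4 of them high-mt, and Ccl8 counts in the summed list. Interferon response genes had medians of -0.11 over 3 genes in UT and 0.09 over 4 in IMQ. The 8 nuclear-retained RNAs of the files, of which Malat1 was the only measured one, had sums of 760 against 4006 CPM in UT and 822 against 663 CPM in IMQ.

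Over the steps of mt- share several genes ran in 1 direction in UT. Because the steps divide the same barcodes, these levels are a description. In UT from at most 2.5% through 2.5 to 5%, 5 to 10% and 10 to 20%, Igfbp5 ran 2164, 3203, 4848 and 5174 CPM. Thy1 ran 308, 532, 843 and 1081, and B2m ran 1101, 1453, 1897 and 3166. Each of these 3 was already higher in the second step than in the first, below the limit. Apod was level below it, at 732 and 735 CPM, and stood at 1440 and 4479 above it. In the other direction Gpx3 ran 1990, 1015, 679 and 232 CPM and Actb ran 6206, 4842, 4075 and 2934. Gm42418 was at 13632 and 13606 CPM below the limit and at 20948 and 46641 above it. At this depth the UT step of 10 to 20% held only 37 barcodes, so the last level of each run rests on few barcodes. The UT step over 20% held 1 barcode at this depth and is not given.

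In IMQ the same genes moved less evenly. Apod was at 350, 311, 772, 1126 and 309 CPM from at most 2.5% to over 20%, so the last step, of few barcodes, was near the level of the reference. Igfbp5 did likewise, at 816, 1042, 1307, 1586 and 541. B2m stayed between 772 and 1401 CPM and was lowest in the last step. Gm42418 ran from 149670 in the first step to 170490 at 10 to 20%, with 167413 in the last. Malat1 had no order in either library, with 6089, 1755, 386 and 3012 CPM in UT and 1069, 172, 1214, 264 and 309 in IMQ.

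**Figure D4:**
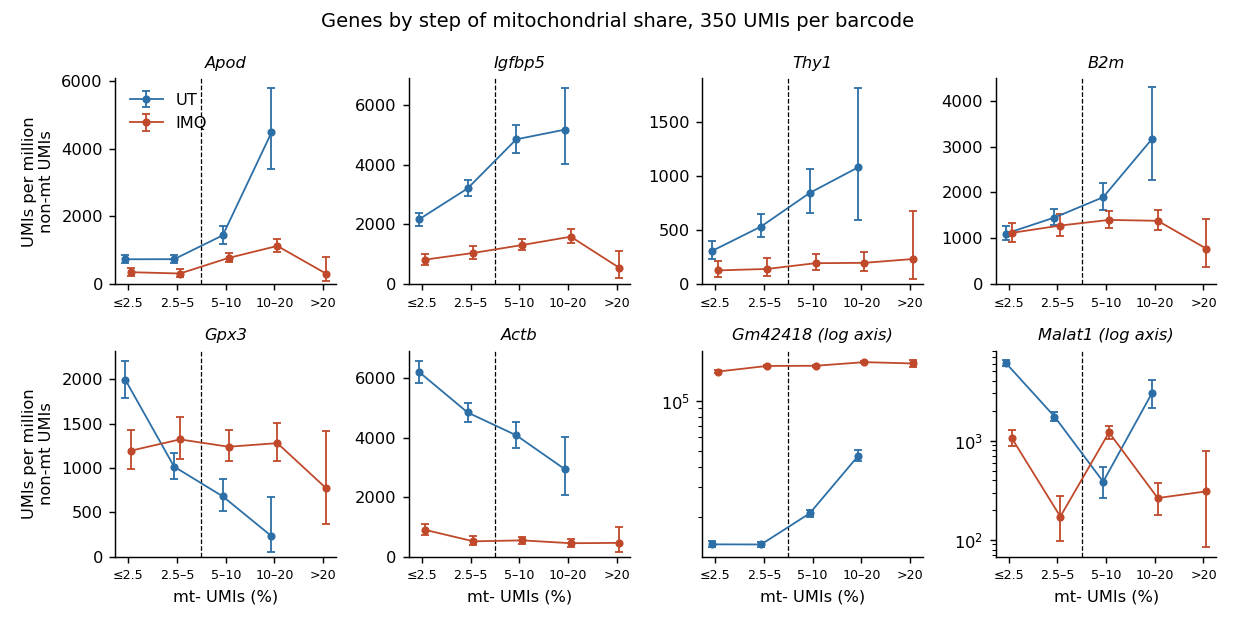
Level (CPM, y axis) of named genes by step of mt- share (x axis), with a panel for each gene, UT and IMQ in separate colours and 95% counting intervals as bars. The y axis is linear, except for Gm42418 and Malat1, where it is a log scale. In UT, Igfbp5 and Apod climb with the step while Gpx3 and Actb go down, and in IMQ Apod climbs to 1126 at 10 to 20% and returns to 309 over 20%. The last UT step shown, 10 to 20%, holds only 37 barcodes.

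Ribosomal RNA locus transcripts took 1.51, 1.55, 2.39 and 5.37% of UMIs over the UT steps and between 16.5 and 18.8% in every IMQ step. Ribosomal protein genes took 22.3, 24.3, 24.5 and 17.7% in UT. In IMQ they took 17.9, 22.8, 22.5, 20.1 and 17.4%, so that in both libraries the middle steps were the highest. Matrix genes went from 10.3 to 14.8% across UT and from 18.0% in the first IMQ step to 21.3% in the last. Nuclear OXPHOS genes went from 2.70 to 2.08% in UT and from 1.68 to 1.29% in IMQ. Actin and vimentin genes went from 2.93 to 1.96% and from 1.22 to 1.08%.

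**Figure D5:**
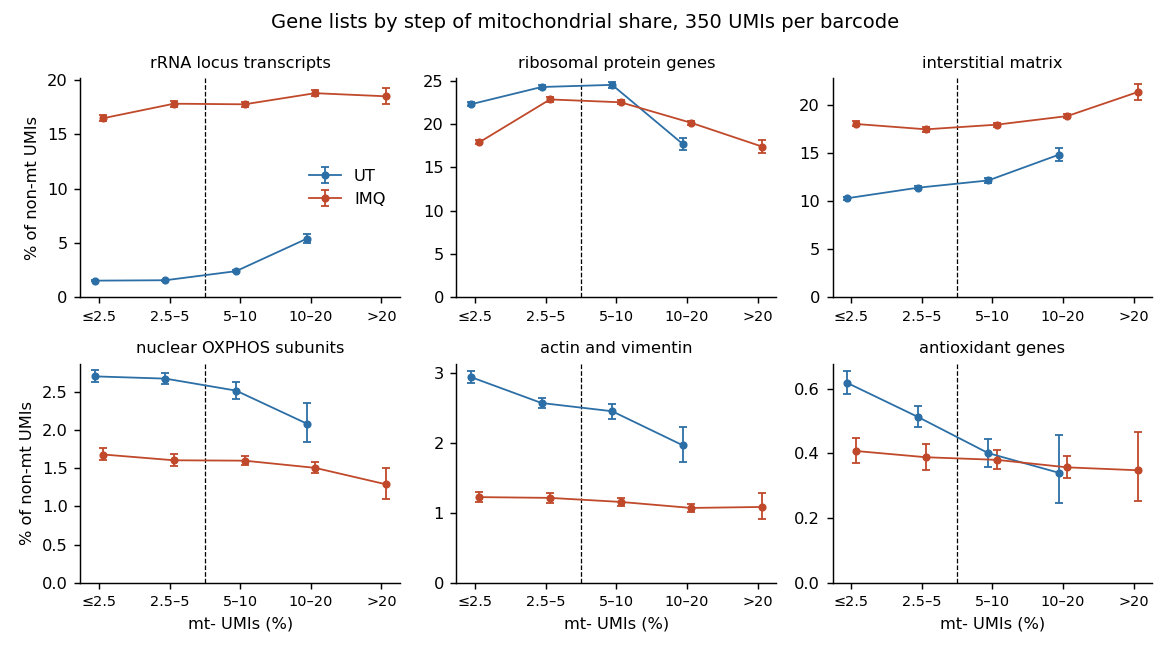
Share of non-mitochondrial UMIs (percent, y axis) taken by gene lists at each step of mt- share (x axis) in UT and IMQ, with 95% counting intervals. Ribosomal RNA locus transcripts go from 1.51 to 5.37% in UT and stay between 16.5 and 18.8% in IMQ, while nuclear OXPHOS genes fall in share in both.

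The ratios of IMQ over UT within the high-mt barcodes are given beside those within the reference. For Actb the log2 ratio was -2.96 in high-mt barcodes and -2.94 in the reference. For Apod it was -1.04 and -1.14, and for Sparc 0.95 and 1.02. Col1a1 stood at 0.73 and 0.97 and Col1a2 at 0.66 and 1.00. Larger gaps between the sets were seen for Gm42418, at 2.77 and 3.51, for Lars2, at 1.98 and 2.98, and for Gpx3, at 1.00 and -0.25. The median over measured genes was -0.39 in high-mt barcodes (686 genes) and -0.56 in the reference (1233 genes). The libraries were made with different Cell Ranger versions and each holds 1 condition, so treatment and library cannot be told apart.

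Coch and Tnc, which encode the secreted protein cochlin and the matrix protein tenascin-C and mark a fibroblast subset of the study, were carried by few barcodes. Before thinning, Tnc gave 0 UMIs in UT high-mt barcodes against 3 in the reference, and 2 against 0 in IMQ. Coch gave 87 UMIs in 15 UT high-mt barcodes against 129 in 24 reference barcodes. In IMQ it gave 136 in 23 high-mt barcodes against 9 in 6 reference barcodes, and 68 of the 136 lay in 1 barcode. At matched depth Coch was at 334 against 114 CPM in UT (1.55, 0.85 to 2.26), and at 35 against 3 UMIs in IMQ, below the 50-UMI minimum.

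High-mt barcodes were found in every cluster of the in-range barcodes. Clustering used all genes but the mt- genes, and the clusters are numbered by size. In UT the share above the limit was 17.9% in cluster 1 (627 barcodes, led by Klk1, Ms4a4d and Olfml2b), 26.5% in cluster 2 (490) and 34.9% in cluster 3 (126, led by F13a1, Moxd1 and Igfbp2), where its interval was 26.6 to 43.9%. It was 15.7% in cluster 4 (51), 10.7% in cluster 5 (28 barcodes, with Cd74 and H2 genes in the lead) and 25.9% in cluster 6 (27, led by Fmod, Coch and Crabp1). In IMQ clusters 1 to 4 it was 50.9, 65.2, 64.8 and 62.0%, and 40.0% in the 10 barcodes of cluster 5, which class II genes led. Ccl21a and the endothelial gene Pecam1 led IMQ cluster 2 (402 barcodes), but Pecam1 stood at only 109 CPM there. At matched depth, 0 of 831 high-mt and 0 of 560 reference barcodes of IMQ held at least 3 UMIs of endothelial markers. Cluster 4 of UT, led by keratin genes, was also the deepest, with a median of 2893 non-mitochondrial UMIs.

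The genes compared within clusters were chosen after their values were seen. Apod was higher in high-mt barcodes in clusters 1, 2 and 3 of UT, with ratios of 0.97, 1.87 and 0.71. In IMQ it was 0.68 and 2.13 in clusters 1 and 2 but -0.66 and -0.60 in clusters 3 and 4, so its direction was not shared by all clusters there. Igfbp5 had 0.96, 0.75 and 0.30 in UT, and 0.83, -0.09, 0.84 and 0.83 in IMQ. Gm42418 had 1.11, 0.36 and 1.14 in UT and between -0.05 and 0.44 in IMQ. B2m had 0.66, 0.34 and 0.57 in UT clusters 1 to 3.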

How the data were processed

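The deposited matrices hold counts of unique molecular identifiers (UMIs) per gene and barcode, made by the authors from Chromium Single Cell 3' v3 libraries with Cell Ranger (3.0.0 for UT and 3.1.0 for IMQ per the file headers) on mm10. Whether reads were counted by strand is not stated in the sources used here. The study removed barcodes under 200 or over 5000 genes or above its mitochondrial limit and then ran a doublet caller. Its reported cell numbers after filtering exceed the reference barcodes here in both libraries, and in IMQ they exceed all barcodes held. Which of the barcodes described here the study kept is therefore not known. No doublet caller was run here, and the deepest 5% of barcodes were left out as a check.

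Members, gene lists and comparisons were chosen with earlier results of these data known. Each barcode was thinned once without replacement (seed 1) to 350 non-mitochondrial UMIs, the lower of the libraries' 10th percentiles over high-mt barcodes rounded down to a multiple of 50. Genes with at least 50 thinned UMIs in both sets together were measured, 1 CPM was added, and a gene at least 2-fold apart was called. Intervals were exact (conditional binomial for ratios, Clopper-Pearson for shares). No p-value was computed. Of 31053 gene IDs, 31011 were found in GENCODE release 21 of mouse for coordinates.

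The named genes were the 12 highest and 12 lowest in both libraries by the smaller ratio among genes of at least 100 CPM, the 5 highest and 5 lowest of each library, the ribosomal RNA locus and study genes, and the 3 with the most UMIs of each other list. Genes outside this rule (Col6a1, Rps27l, Cox5b, Ndufb7, Fis1, Serp1, Bnip3l, Hspa1a, Ccl8) were named after their values were seen. Clusters came from scanpy 1.11.5 on non-mitochondrial genes (2000 variable genes, 20 components, resolution 0.5) and TMM factors from edgeR 4.0.16 in R 4.3.3, used for scaling only. Thinning and ratios were checked on simulated counts. Other software was numpy 2.4.6, scipy 1.17.1, pandas 2.3.3 and matplotlib 3.10.9. Alternatives covered thinning, scaling, filters, the gene minimum and the mitochondrial limit. Some named genes are not reported here.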

Additional observations from a re-analysis of the deposited data

Results flagged for a closer look

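For 4 named genes the counting intervals of the ratio of high-mt over reference barcodes lay on opposite sides of 0 in the libraries, and the difference was not tested. AY036118, of the ribosomal RNA loci, had a log2 ratio of 0.71 in UT and -0.11 in IMQ. Hspa8, a constitutive chaperone, had -0.56 and 0.33. Col1a2, a chain of collagen I, had 0.24 and -0.11, and Mt1, a metallothionein, had 0.25 and -0.41.

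Barcodes under 200 genes lie outside the comparisons and also carried mt- UMIs above 5%: there were 28 in UT and 2489 in IMQ. The IMQ ones had a median of 102 genes and a median mt- share of 14.3%.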

How the results depend on the processing

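No paired analysis was possible because each group holds 1 library. Named genes past 2-fold numbered 34 gene and library pairs, and 485 of their 611 values under alternatives stayed past 2-fold in the same direction while 7 reversed. The 611 include minimums of 20 and 200 UMIs, which leave a ratio unchanged by design. They also include leaving out the shared barcode, which removes 1 barcode in UT and 0 in IMQ. The reversed values were, in UT, Smim27 at -0.24 and, in IMQ, Polr2f at 0.22 when thinned to 2 times the depth, Igkc in UT at 0.76 with a reference of at most 2.5%, and Cd74 in UT at -9.19 with at least 500 genes, -1.01 with a limit of 10%, -1.36 without the deepest 5% and -1.37 without its top barcodes. The last of these settings and equal weight per barcode were chosen after seeing the data.

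Counts of genes past 2-fold moved with many settings. In UT their balance turned with the reference weighted by depth, to 22 higher and 12 lower. In UT the number higher was 37 without thinning, 10 with TMM, 79 and 4 with minimums of 20 and 200 UMIs, 9 with at least 500 genes and 104 with a limit of 10%. The number lower in UT was 241 without thinning, 78 at 2 times the depth, 12 with the reference weighted by depth, 271 and 4 with minimums of 20 and 200 UMIs, 23 with at least 500 genes and 269 with a limit of 10%. In IMQ the number higher was 15 without thinning, 27 with the weighted reference, 12 with TMM, 45 and 1 with minimums of 20 and 200 UMIs, 4 and 0 with at least 300 and 500 genes, 4 with a limit of 10% and 17 with a reference of at most 2.5%. The number lower in IMQ was 70 without thinning, 8 at 2 times the depth, 7 with another seed, 39 with the weighted reference, 5 with TMM, 94 and 0 with minimums of 20 and 200 UMIs, 2 with at least 300 genes, 2 with at least 500 genes and 32 with a reference of at most 2.5%. The higher minimums leave fewer genes and barcodes, and the cause of the other moves was not tested.

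The UT share of in-range barcodes above the limit was 17.6 and 12.4% with at least 300 and 500 genes and 7.78, 3.56 and 0.148% with limits of 7.5, 10 and 20%. The IMQ share was 66.3% with no gene minimum, 55.8 and 44.8% with at least 300 and 500 genes, 41.1, 26.8 and 2.74% with the higher limits and 67.1% without ribosomal RNA locus transcripts in the total. A cluster of 10 IMQ barcodes, at 40.0%, was left out of the range for its size. Across the other clusters of IMQ, the highest share was 70.9% at resolution 0.8, and the lowest 57.2% at resolution 0.3 and 41.7% at 0.8. The median ratio of IMQ over UT in high-mt barcodes was -0.51 without thinning and -0.22 without ribosomal genes in the total.

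Of the list medians under alternatives, 119 stayed within the spread and 19 moved. The spread is an interval taken from the ratios of the list's own genes, and for short lists it is their full range. A short list could therefore shift far and still count as staying. The UT immediate early genes, 5 measured, went from -0.11 to 0.64 with at least 300 genes and counted so. In UT ribosomal protein genes were at 0.073 without thinning, -0.035 with at least 300 genes and -0.45 with a limit of 10%, and metallothioneins and ferritins at 0.27, 0.32 and -1.15. With that limit the UT medians of nuclear OXPHOS genes were -0.38, of the ribosomal RNA locus 1.62, of matrix 0.60 and of the secretory pathway 0.082. In IMQ without thinning, immediate early genes were at -0.96, heat-shock chaperones -0.36, the integrated stress response -0.35, glycolysis -0.41 and metallothioneins and ferritins -0.70 (-0.41 with at least 300 genes). With a limit of 10% the IMQ ribosomal protein genes were at -0.094, immediate early genes at 0.29 and heat-shock chaperones at -0.20.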

Other observations

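In the IMQ library, the barcodes under 200 genes were rich in the ribosomal RNA locus. Over all 2489 of them above 5% mt-, without thinning, Gm42418 stood at 364686 CPM. The IMQ high-mt barcodes of the gene range held it at 165714 CPM after thinning. Of the other barcodes under 200 genes, 1132 in IMQ and 36 in UT had at most 5% mt- UMIs.

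High-mt barcodes held 17.1% of the non-mitochondrial UMIs of the gene range in UT and 58.0% in IMQ.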
